A study of Mus musculus with 12 samples.

Results

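Genes whose products detect, split or clear stalled ribosomes were followed through ribosome profiling and total RNA sequencing of B16F10 cells, a mouse melanoma line, with and without a knockdown of Osgep. They are the 10 members Pelo, Hbs1l, Gtpbp1, Gtpbp2, Zfp598, Ascc3, Ltn1, Nemf, Edf1 and Map3k20, chosen by name from the 55487 genes of both count tables, by a rule that uses no measured value. Cells labelled WT carried a control hairpin (shCtr) and cells labelled KD OSGEP carried hairpin number 2 against Osgep (shOSGEP), so that 1 hairpin stood for the knockdown. Each genotype had 3 replicates, each with 1 library of ribosome-protected fragments (RPF) and 1 of total RNA, which gave 12 libraries. All cells were grown in the same serum-containing medium, and the labels give cycloheximide, which arrests elongation, for all 12 libraries. Ribosomes for RPF were captured on a puromycin analogue. The study examined the t6A modification, which Osgep makes as the catalytic subunit of the KEOPS complex in tRNAs that read codons beginning with A (ANN codons).

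A ribosome that stops on a message is normally met by the one behind it. Zfp598, a ubiquitin ligase, and Edf1, a small factor that binds collided ribosomes, recognise the resulting stack, and the helicase Ascc3, a subunit of the ASC-1 complex, pulls it apart. Pelo and its GTPase partner Hbs1l enter ribosomes whose decoding site is empty or blocked and lead to their splitting, and Gtpbp1 and Gtpbp2 are related GTPases that also act on stalled ribosomes. The large subunit that keeps the unfinished chain is bound by Nemf, which extends the chain, and by the ubiquitin ligase Ltn1 (listerin), which marks it for destruction. Map3k20 (ZAK) is the kinase that senses stalled or collided ribosomes and starts the ribotoxic stress response. These are established roles and were not measured here.

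The coding sequences of the members differ in how often they call on ANN codons, and the longest uninterrupted runs of such codons are shown because tRNAs that read such codons are the ones that carry t6A, though ribosome occupancy within the runs was not measured here. They were read from the longest complete coding sequence of each gene in GENCODE M21 (GRCm38). Capitals mark the run, lower case marks the 2 codons on either side, and codons are counted from the start codon.

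Zfp598, codons 730 to 741: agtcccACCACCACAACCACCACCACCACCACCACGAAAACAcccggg
Nemf, codons 862 to 869: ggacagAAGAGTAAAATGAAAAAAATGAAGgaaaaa
Ascc3, codons 689 to 695: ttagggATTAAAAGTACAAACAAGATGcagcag
Map3k20, codons 94 to 99: gattacATTAACAGCAACAGGAGTgaagag
Edf1, codons 54 to 58: cattccATTACTAAAAACACAgccaag
Pelo, codons 86 to 88: aaggggACCAATATCcaagag

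The run of 12 ANN codons in Zfp598 was the longest of the 10 genes and was made largely of ACC, whereas the run of 8 in Nemf was made largely of the lysine codons AAA and AAG. Pelo had the shortest, with 3 codons. Hbs1l and Ltn1 each had a longest run of 5, like Edf1, and Gtpbp1 and Gtpbp2 each had one of 4. Zfp598, with the longest run, nevertheless had the lowest share of ANN codons of the members, 21.4%, and lay above 13.5% of 21546 protein-coding genes. Edf1 had the highest share, 35.1%, and lay above 94.6% of them. The other members lay between 24.4% (Pelo) and 31.7% (Nemf), on both sides of the median of 27.7% over all protein-coding genes. Lysine codons made up 14.2% of Edf1 and 10.7% of Nemf, against 4.97% to 7.48% in the other 8 members.

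In GRCm38 the members lie on 7 chromosomes, and 3 chromosomes hold a pair of them. Hbs1l (chr10:21295979-21368898, plus strand) and Ascc3 (chr10:50592669-50851485, plus) are on chromosome 10, Edf1 (chr2:25557847-25562082, plus) and Map3k20 (chr2:72285637-72442610, plus) on chromosome 2, and Zfp598 (chr17:24669687-24682016, plus) and Gtpbp2 (chr17:46161032-46169370, plus) on chromosome 17. Pelo (chr13:115088355-115090186, minus), Gtpbp1 (chr15:79690845-79721479, plus), Ltn1 (chr16:87376651-87432612, minus) and Nemf (chr12:69310522-69357165, minus) stand alone on theirs.

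The libraries differed in depth and composition. Total RNA libraries held 46.7 to 81.1 M counts (M for mega), of which 41792 to 65449 fell on the members. RPF libraries held 12.9 to 40.3 M, but only 4.42 to 17.02 M on protein-coding genes and 4353 to 16792 on the members. The shOSGEP replicate 1 RPF library stood apart, with 67.7% of its counts on ribosomal RNA against 27.7% to 44.8% in the other 5, and replicate pair 1 held the greatest differences between genotypes. In that pair 21.7% of genes in total RNA and 27.2% in RPF differed by more than 1 log2 unit, against 4.43% to 4.45% and 7.95% to 8.57% in pairs 2 and 3. Osgep RNA in shOSGEP was 4.25%, 44.0% and 44.4% of its level in the shCtr library of replicates 1, 2 and 3, and Osgep RPF was 63.1%, 52.3% and 50.1%. In pair 1 the assays thus disagreed on Osgep, at -4.48 in total RNA and -0.66 in RPF on the log2 scale. The cause was not tested. All 7 melanocyte lineage markers exceeded a mean of 1 count per M (CPM), and their summed total RNA level ranged from 9665 to 16836 CPM in shCtr and from 2655 to 12789 CPM in shOSGEP, with its lowest value in shOSGEP replicate 1. Summed levels of fibroblast markers were 6.51 to 8.83 CPM in shCtr and 10.1 to 25.3 CPM in shOSGEP total RNA, and those of leukocyte, keratinocyte and endothelial markers were at most 5.97 CPM in any total RNA library. Their part in the values that follow was not tested.

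To ask at what level B16F10 cells express the factors, levels in shCtr cells were compared per length, as CPM per kilobase (kb) of coding sequence for RPF. Use of the factors on stalled ribosomes was not measured. Edf1 was the highest of the members at 57.7 ± 15.7 RPF CPM per kb (SD, n = 3). Map3k20 followed at 33.3 ± 1.98 and Hbs1l at 19.0 ± 1.20, each with a range over the 3 libraries that did not touch that of its neighbours in the order. The next 6 lay close together, from Zfp598 at 14.3 ± 2.48 through Gtpbp2, Gtpbp1, Nemf and Ltn1 to Pelo at 9.30 ± 1.75, and no neighbours among them were apart. Ascc3, the longest coding sequence of the set, was lowest at 2.84 ± 1.04 and apart from the others.

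The order in total RNA depended on the length that divided the counts. Per kb of all annotated exons, Edf1 was again highest at 45.0 ± 4.41 RNA CPM per kb (SD, n = 3), followed by Gtpbp1 at 24.7 ± 3.15, Zfp598 at 24.0 ± 1.81 and Map3k20 at 20.98 ± 1.61, while Nemf at 5.59 ± 0.763 and Ascc3 at 3.39 ± 0.173 were lowest. For Map3k20, Nemf, Ascc3, Hbs1l, Gtpbp2 and Edf1 the annotated exons together were far longer than the transcript with the longest coding sequence, for example 10175 against 3334 bases in Map3k20. Per kb of that 1 transcript, a choice made after seeing the data, the level of Map3k20 became 64.0 ± 4.92 and that of Hbs1l 31.5 ± 0.841, while Ascc3 at 7.29 ± 0.372 was still the lowest and Edf1 at 82.1 ± 8.05 still the highest. The deposited counts do not tell transcripts of 1 gene apart, so the isoforms of Map3k20 that differ in their C-terminal part were read together.

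**Figure D1:**
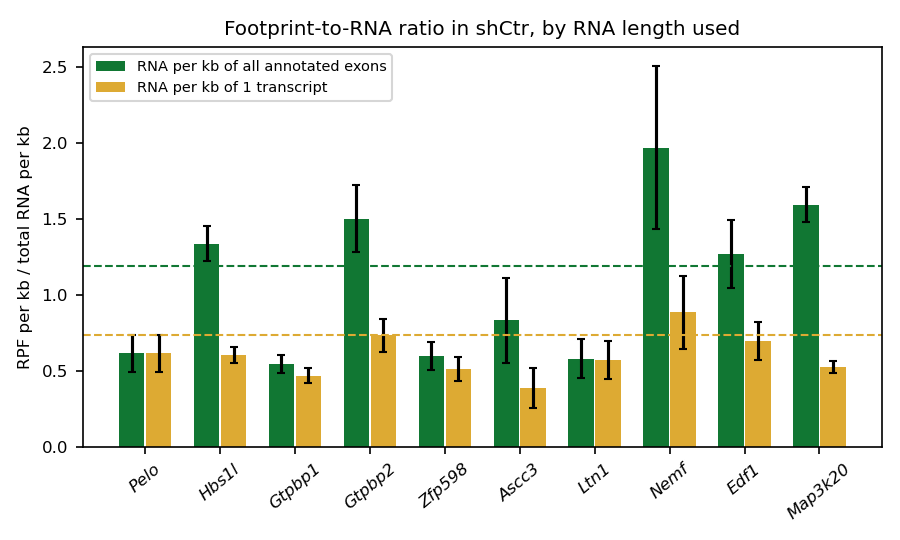
Ratio of RPF CPM per kb of coding sequence to total RNA CPM per kb for each factor in shCtr cells (bars, mean of 3 replicates; error bars, SD), with RNA length taken as all annotated exons (green) or 1 transcript (yellow) and the median over 11260 genes as a dashed line of the same colour. The green bars of Hbs1l, Gtpbp2, Nemf, Edf1 and Map3k20 stand above their median line, and of the yellow bars that of Nemf stands at 0.883 above its line at 0.732 while those of Hbs1l and Map3k20 stand below it.

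The ratio of RPF to RNA per length, a measure of how densely each message is occupied, likewise depended on that choice. Over exon length, Nemf had the highest ratio at 1.97 ± 0.537 (SD, n = 3) and Map3k20 the next at 1.59 ± 0.117, against a median of 1.19 over 11260 genes, and no neighbours in the order of the 10 ratios had ranges that were apart. Over the length of 1 transcript these became 0.883 ± 0.241 and 0.522 ± 0.0385, against a median of 0.732. Hbs1l, Gtpbp2 and Edf1 also moved from above the median to below it, Gtpbp2 and Edf1 by margins smaller than their SD. Gtpbp1, Zfp598, Ltn1 and Pelo had ratios that were less affected as values, although these genes moved in the order of all genes. They stood above 8.06% to 12.5% of genes over exon length and above 16.4% to 36.0% over transcript length. Their ratios ran from 0.542 to 0.614 over exon length and from 0.467 to 0.614 over transcript length, below the median of all genes on both scales. Ascc3 was below it on both as well, at 0.833 ± 0.279 and 0.387 ± 0.13, as the plot of the ratio under both lengths shows. Nemf was the 1 member above the median of all genes with either length, and its range in shCtr over transcript length, 0.643 to 1.13, reached below that median.

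To ask whether the knockdown changed the factors, shOSGEP was compared with shCtr for total RNA, RPF and translational efficiency (TE, the change in RPF beyond that in RNA). All 10 members were abundant enough to be tested in each. By edgeR's quasi-likelihood test with Benjamini-Hochberg adjustment over all genes, 0 of 10 members passed in total RNA, RPF or TE, where percent called over all genes tested was likewise 0. At an unadjusted p under 0.05 this fit, which ignores pairing, also had 0 of 10 members in each comparison. All genes under that threshold were 1.78% in total RNA, 1.03% in RPF and 0.135% in TE. By the same test with the replicate number as a block, 1 of 10 members, Gtpbp2, was under it in RPF (p 0.021, adjusted p 0.817). The share of all genes under that threshold with the block was not counted. The 1.03% comes from the fit without it, so 1 of 10 cannot be read against that share. In total RNA this block gave 0 of 10. In TE the block was the cell sample that gave both libraries, and the count was also 0 of 10. DESeq2 called 0 members as well, and 8 genes in total RNA, 1 in RPF and 0 in TE. Osgep itself did not pass either (log2 change in total RNA -1.65, SE 0.768, adjusted p 0.975). In these bulk samples, fewer cells with a transcript and less of it per cell cannot be told apart.

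**Figure D2:**
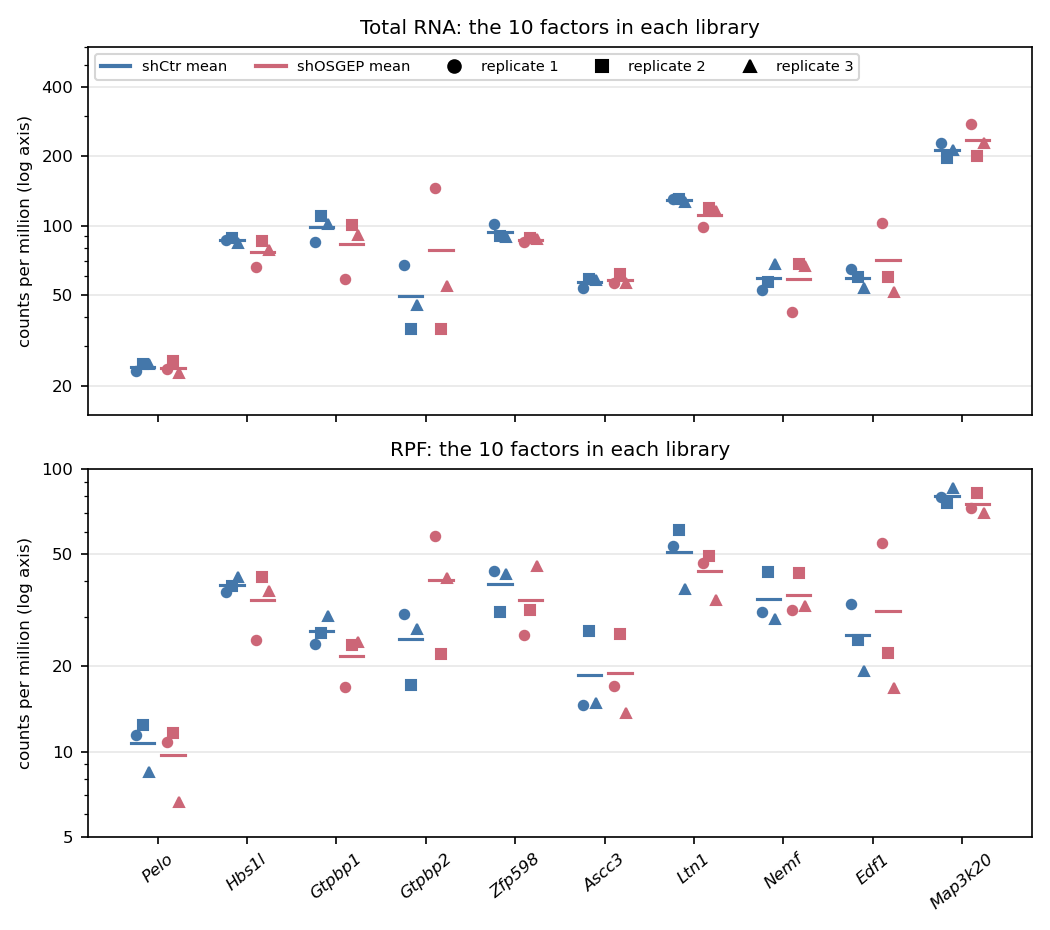
Counts per M (log axis) of each factor in the 6 total RNA libraries (top) and the 6 RPF libraries (bottom). Blue is shCtr and red is shOSGEP, the symbol gives the replicate and the line the mean of 3 libraries. The genotypes do not overlap only for Zfp598 and Ltn1 in total RNA, both lower in shOSGEP. By that rule 448 of 14516 genes tested in total RNA were lower (3.09%) and 580 were higher. Gtpbp2 and Edf1 have their highest value in shOSGEP replicate 1 in both assays.

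The rescue GTPase Gtpbp2 showed the greatest fitted difference of the members in both assays. Its total RNA was 67.2, 35.4 and 45.1 CPM in shCtr replicates 1, 2 and 3, and 146, 35.4 and 54.7 CPM in shOSGEP. One library was high, shOSGEP replicate 1, and the replicate 2 pair was equal. The fitted log2 change was 0.67 (SE 0.528, 95% interval -0.58 to 1.92, adjusted p 0.975), while with the replicate number as a block it was 0.46. Without replicate 1 in both genotypes the change was 0.15, and without the shOSGEP library of replicate 1 alone it was -0.14. Gtpbp2 RPF was 30.7, 17.2 and 27.1 CPM in shCtr and 58.0, 22.1 and 41.0 CPM in shOSGEP. It was thus higher in shOSGEP in each of the 3 pairs, by 0.92, 0.37 and 0.60 on the log2 scale, although the groups overlapped. The fitted change was 0.69 (SE 0.411, 95% interval -0.28 to 1.66, adjusted p 0.9998). With the block the change was 0.63 with an unadjusted p of 0.021 and an adjusted p of 0.817. It was 0.50 without replicate 1 in both genotypes and 0.32 without the shOSGEP library alone. The TE change had an interval from -1.58 to 1.59, and from -0.48 to 0.80 with the cell sample as a block.

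Gtpbp1, its close relative, had values on the other side of 0. Total RNA was 85.1, 109.8 and 102 CPM in shCtr and 58.5, 101.1 and 90.8 CPM in shOSGEP. RPF was 23.9, 26.2 and 30.1 CPM against 16.9, 23.8 and 24.4 CPM. Each pair was lower in shOSGEP in both assays, with overlap between the groups. The fitted log2 changes of Gtpbp1 were -0.25 (SE 0.229) for RNA and -0.30 (SE 0.256) for footprints, neither of which passed (adjusted p 0.975 and 0.9998). Pair 1 held the greatest difference in both, and without replicate 1 in both genotypes the changes were -0.15 and -0.24. They were -0.053 and -0.16 without the shOSGEP library alone.

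Among the factors that recognise collided ribosomes, Zfp598 and Edf1 differed in pattern. Zfp598 total RNA was 101.8, 89.8 and 89.3 CPM in shCtr and 84.6, 88.4 and 87.3 CPM in shOSGEP, so that every shOSGEP library lay below every shCtr library. The margin was small, and the fitted change of -0.11 (SE 0.127, 95% interval -0.41 to 0.19) did not pass. Zfp598 RPF overlapped, at 43.4, 31.3 and 42.4 CPM against 25.9, 31.8 and 45.3 CPM, with the lowest value in shOSGEP replicate 1. Its fitted change was -0.19, and it was 0.049 without replicate 1 in both genotypes and -0.034 without the shOSGEP library alone. Edf1 was nearly level between genotypes outside replicate 1. Its total RNA was 64.9, 59.7 and 53.3 CPM in shCtr and 102.2, 59.5 and 51.5 CPM in shOSGEP, and its RPF was 33.2, 24.8 and 19.3 CPM against 54.9, 22.4 and 16.8 CPM. The high library was shOSGEP replicate 1 in both assays. The fitted changes of 0.26 (SE 0.27) and 0.28 (SE 0.482) became -0.036 and -0.18 without replicate 1 in both genotypes, and -0.10 and -0.41 without that library alone.

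The helicase Ascc3 was nearly level between genotypes. Its total RNA ranged from 53.2 to 58.5 CPM in shCtr and from 56.1 to 61.6 CPM in shOSGEP, and the 95% interval of the change, -0.27 to 0.35, left no room for a 2-fold difference in either direction. Ascc3 RPF ranged from 14.6 to 26.7 CPM in shCtr and from 13.7 to 26.1 CPM in shOSGEP, with a fitted change of 0.021 (SE 0.367). In both genotypes the RPF level was highest in replicate 2.

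The splitting pair Pelo and Hbs1l showed small differences. Pelo total RNA ranged from 23.2 to 24.8 CPM in shCtr and from 22.9 to 25.7 CPM in shOSGEP, with a change of -0.013 (SE 0.141). Its RPF was 11.4, 12.4 and 8.49 CPM in shCtr and 10.8, 11.7 and 6.61 CPM in shOSGEP, lower in each pair but overlapping, and the fitted change was -0.15 (SE 0.315). Pelo was also the 1 member whose TE had the same direction in all 3 pairs, at -0.11, -0.13 and -0.24. Its fitted TE change was -0.15 (SE 0.33, adjusted p 0.99999). Of 12560 genes tested in TE, 1406 (11.2%) were lower in each pair and 1458 were higher in each pair. Hbs1l total RNA was 86.7, 88.1 and 83.6 CPM in shCtr and 66.0, 85.8 and 78.3 CPM in shOSGEP, which was lower in each pair. The fitted change of -0.17 (SE 0.146) did not pass, and its RPF change of -0.18 (SE 0.272) did not have 1 direction over the pairs and was -0.042 without replicate 1 in both genotypes and -0.0027 without the shOSGEP library alone.

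The factors of the large-subunit step, Ltn1 and Nemf, differed in their values. Ltn1 total RNA was 130.3, 130.3 and 126.4 CPM in shCtr and 98.7, 119.5 and 116.2 CPM in shOSGEP. Every shOSGEP library was below every shCtr library, with pair changes of -0.40, -0.12 and -0.12 on the log2 scale. The fitted change was -0.21 (SE 0.133, 95% interval -0.53 to 0.10, unadjusted p 0.158, adjusted p 0.975), the smallest unadjusted p of the members in total RNA, and it was -0.13 without replicate 1 in both genotypes and -0.14 without the shOSGEP library alone. Ltn1 RPF was 53.6, 60.7 and 37.6 CPM in shCtr and 46.5, 49.3 and 34.5 CPM in shOSGEP, again lower in each pair but with overlap, and the fitted change was -0.22 (SE 0.291). Nemf total RNA ranged from 52.4 to 68.0 CPM in shCtr and from 41.9 to 67.9 CPM in shOSGEP, with its lowest value in shOSGEP replicate 1. The change of -0.0055 (SE 0.224) became 0.10 without replicate 1 in both genotypes and 0.18 without that library alone, and the fitted change of Nemf RPF was 0.051 (SE 0.27).

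The kinase Map3k20 was the most abundant member in both assays as CPM, and its level exceeded that of 93.9% of genes tested for RNA and 92.9% for footprints. Its total RNA was 229.9, 197.1 and 213 CPM in shCtr and 277, 201 and 228 CPM in shOSGEP, higher in each pair, with a change of 0.14 (SE 0.164). RPF ran the other way in 2 of 3 pairs, at 79.6, 75.9 and 85.4 CPM against 72.7, 82.2 and 69.7 CPM, with a change of -0.10 (SE 0.239). Its TE change of -0.25 (SE 0.262, 95% interval -0.82 to 0.32, unadjusted p 0.357, adjusted p 0.99999) had the smallest unadjusted p of the members in TE. The pairs were at -0.40, 0.088 and -0.39, so pair 2 had the opposite sign.

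**Figure D3:**
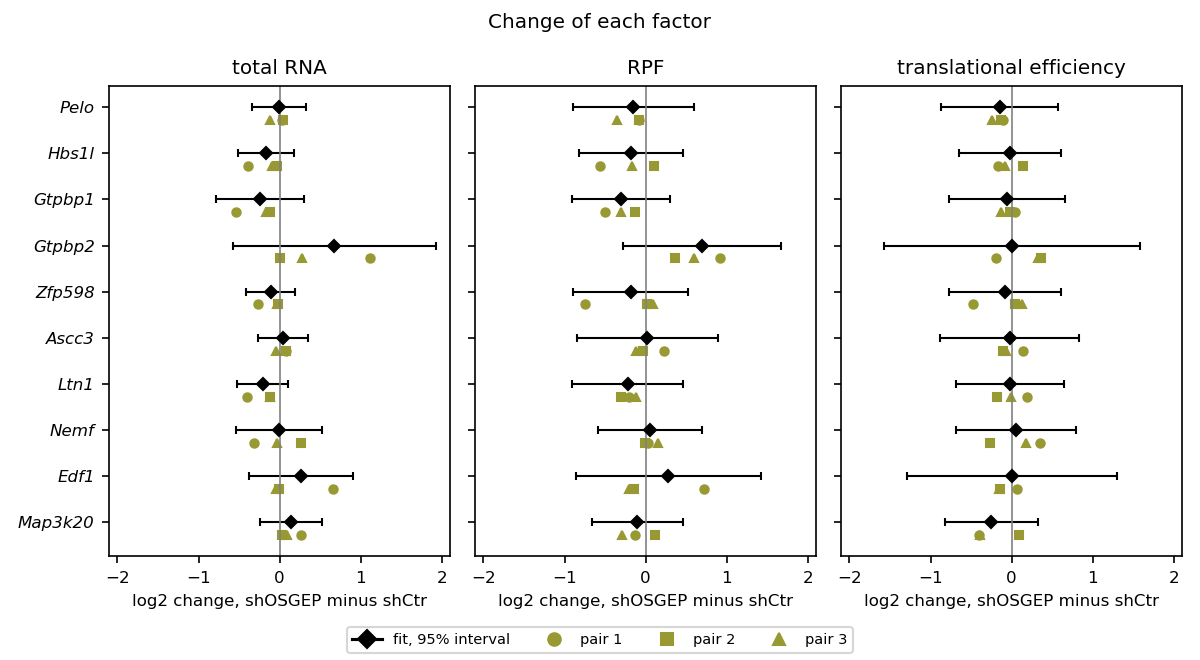
Fitted log2 change of each factor, shOSGEP minus shCtr (black diamonds; bars, 95% interval of the edgeR fit), in total RNA, RPF and translational efficiency, with the change in each of the 3 replicate pairs below (olive symbols). All 30 intervals, from the fit without pairing, cross 0, and those of Gtpbp2 and Edf1 are the widest in each panel. With the replicate block, not drawn here, the interval of Gtpbp2 in RPF was 0.14 to 1.12.

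Counted over the set, the groups did not overlap for 2 of 10 members in total RNA, both lower in shOSGEP. By that rule 448 of 14516 genes tested were lower (3.09%) and 580 were higher. In RPF and TE 0 of 10 members had groups that did not overlap, beside 5.07% and 4.34% of all genes in either direction. In total RNA 4 members (Hbs1l, Gtpbp1, Zfp598 and Ltn1) were lower in each of the 3 pairs, beside 16.2% of all genes, and Map3k20 was higher, beside 17.7%. In RPF 3 members (Pelo, Gtpbp1 and Ltn1) were lower in each pair, beside 15.2%, and Gtpbp2 was higher, beside 15.7%. Gtpbp1 and Ltn1 were in both of these lower groups. The share of all genes lower in every pair of both assays was not counted, so no excess can be read from this. The median fitted change of the members was -0.0092 in total RNA, -0.13 in RPF and -0.022 in TE, beside medians over all genes tested of 0.021, 0.045 and -0.0024. These counts are a description of the set and carry no test.

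The precision of the fits limits what an absence of calls can say. The 95% interval lay within 1 log2 unit of 0, and so excluded a 2-fold difference, for 9 of 10 members in total RNA, with Gtpbp2 as the exception, and for 8 of 10 in RPF and in TE, with Gtpbp2 and Edf1 as the exceptions. These intervals come from the fit without pairing. With the replicate block they lay within 1 log2 unit of 0 for 9 of 10 members in total RNA and 9 of 10 in RPF. The exception in both was Gtpbp2, with intervals of -0.18 to 1.11 and 0.14 to 1.12. With the cell sample as a block, 10 of 10 members had such intervals in TE. In pair 1 the median absolute change of the members was 0.36 in both assays, beside 0.47 in total RNA and 0.56 in RPF over all genes tested, and Gtpbp2 in total RNA was the 1 member past 1 log2 unit.

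**Figure D4:**
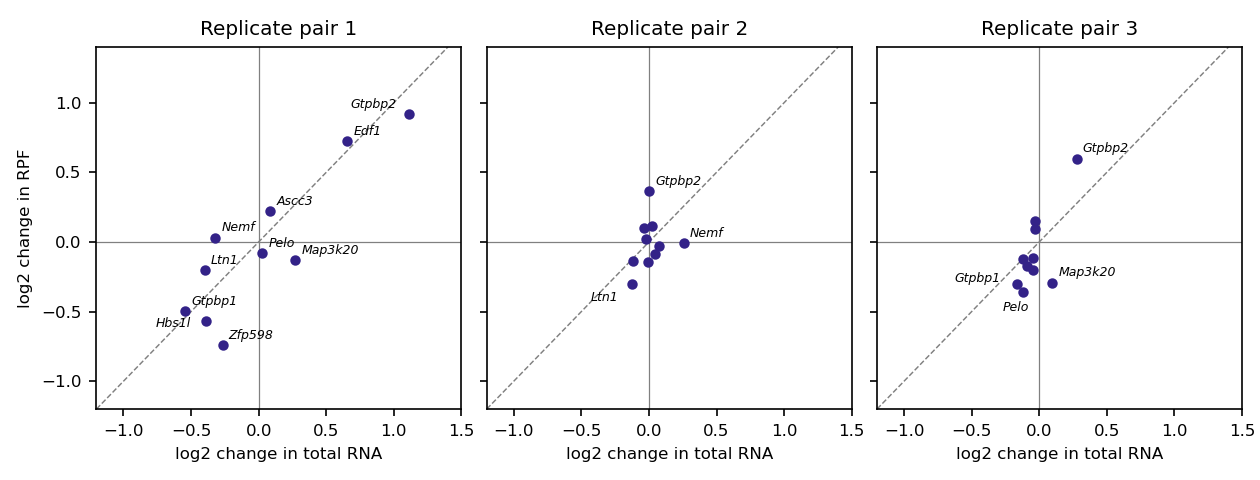
Log2 change in total RNA (horizontal) and in RPF (vertical), shOSGEP minus shCtr, for the 10 factors in each replicate pair; the dashed line marks equal change. In pair 1 the points spread from Gtpbp1 at -0.54 in total RNA to Gtpbp2 at 1.11, while in pairs 2 and 3 they gather near 0 with Gtpbp2 highest in RPF.

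Other genes of the same pathways were examined as 5 lists of 43 genes in all, each of them tested in every comparison. By the edgeR test 0 of 43 passed after adjustment in total RNA, RPF or TE, and 0 of 43 had an unadjusted p under 0.05. Among partners that sense collisions or ubiquitinate ribosomes (11 genes), Rnf14, a ubiquitin ligase of stalled translation factors, had a total RNA change of 0.50 (SE 0.29) and an RPF change of 0.38 (SE 0.331). Gcn1, which binds collided ribosomes and activates Gcn2, had a total RNA change of -0.20 (SE 0.127), and Rnf25, the ligase that acts with Rnf14, had an RPF change of 0.52 (SE 0.429).

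The 6 partners of Ascc3 and of the cap-binding repressor that Edf1 recruits all had positive fitted RPF changes, with a median of 0.34, and positive TE changes, with a median of 0.16. Positive changes were held by 7421 of 13529 genes in RPF and 6229 of 12560 in TE, and 0 of the 6 passed. Trip4, a subunit of the ASC-1 complex with Ascc3, had changes of 0.56 (SE 0.329) in RPF and 0.33 (SE 0.228) in total RNA, while Ascc3 itself was at 0.021 and 0.038. The cap-binding protein Eif4e2 had changes of 0.31 (SE 0.283) and 0.12 (SE 0.139).

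Of the 9 splitting, recycling and decay genes, Ttc37, a scaffold of the cytoplasmic exosome helicase, had changes of 0.55 (SE 0.591) in RPF and 0.22 (SE 0.124) in total RNA. Its partners in the same complex were the helicase Skiv2l, with an RPF change of 0.35 (SE 0.323), and Wdr61, with a total RNA change of -0.18 (SE 0.138). The 10 genes that clear the chain left on the large subunit had medians of -0.030 in RPF and -0.042 in total RNA. Among them Ankzf1, which releases the chain from its tRNA, had an RPF change of 0.63 (SE 0.36), and Nploc4, a cofactor of the extracting ATPase, one of -0.41 (SE 0.263). In total RNA Rchy1 and Klhdc10, ubiquitin ligase components that act on Nemf-tailed chains, were at -0.20 (SE 0.168) and -0.16 (SE 0.135).

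Of 7 ribotoxic stress kinases downstream of Map3k20, Map2k6 had changes of -0.78 (SE 0.532) in RPF and -0.65 (SE 0.549) in total RNA, and Map2k4 an RPF change of -0.73 (SE 0.405). In pair 1 these 3 values were -2.40, -2.41 and -1.83, and in the other pairs they ranged from -0.79 to 0.027. Mapk9 had a total RNA change of 0.38 (SE 0.275). None passed the test. Of all the pathway genes named here, each value in total RNA and RPF was farthest from 0 in pair 1, apart from Ankzf1 in RPF. In RPF the 3 pairs were at 1.01, 0.076 and -0.089 for Ttc37 and at 1.12, 0.31 and 0.094 for Trip4, and in total RNA those of Rnf14 were at 0.95, -0.0032 and 0.32.

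Sequence shared with other genes could split or remove reads for 3 members. In 30-base windows of the coding sequence, 35.9% of Pelo occurred also in Gm49395, an annotated coding gene on the same strand. Exons of Gm49395 overlap 739 of the 1600 exonic bases of Pelo. Pelo also lies within Itga1, but their exons overlap over 0 bases. Of Edf1 40.2% occurred elsewhere, chiefly in the processed pseudogene Gm11964, and of Hbs1l 19.4%, chiefly in the pseudogene Gm9923. These 3 partners held few counts, 0 to 33 per RPF library and 1 to 73 per total RNA library, but the handling of reads with several matches is not given in the sources used here, so the levels of Pelo, Edf1 and Hbs1l are uncertain. Zfp598 shared 2 windows with Kdm6b, and the remaining 6 members shared 0. Exons of Nemf, Gtpbp1, Hbs1l and Pelo overlap genes on the opposite strand over 166, 254, 266 and 468 bases, and without known strand use those reads cannot be assigned.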

How the data were processed

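Total RNA and RPF of 6 cell samples were sequenced, and both tables deposited by the authors hold whole-number read counts per Ensembl gene without normalisation. Per the submitters' processing notes, FastQC 0.11.9, Trim Galore 0.6.6, cutadapt and STAR (given as version 3.0) were used, and both GRCm38 and GRCm39 are named. The counting step, its annotation, use of strand and treatment of reads with several matches, and the total RNA kit, are not given in the sources used here. RPF were size-selected on a gel and amplified. Their reads carried random end bases, which the authors trimmed, and removal of duplicates is not stated, so counts may not be independent molecules. The study's methods state 3 independent transductions per experiment. No column was without a sample.

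Gene IDs were matched to GENCODE M21 (GRCm38), where 55227 were found and 260 were not. Coding sequences, lengths, overlaps and shared 30-base windows came from that annotation. In R 4.3.3, genes were kept with filterByExpr of edgeR 4.0.16, libraries scaled with TMM factors and genotypes compared with the quasi-likelihood test, with Benjamini-Hochberg adjustment over all genes tested (14516 in total RNA, 13529 in RPF, 12560 in TE) at 0.05. TE was the interaction of assay and genotype over all 12 libraries. CPM used TMM library sizes, and pair changes are differences in log2 CPM with a prior count of 2. Same-numbered libraries deviated together from their group means (correlation across genes, for replicates 1, 2 and 3, of 0.52, 0.54 and 0.29 in total RNA, and of 0.59, 0.51 and 0.66 in RPF), so the numbers were taken to pair the samples in an alternative with a replicate block. In the TE fit the block was instead the cell sample that gave both an RPF and a total RNA library. That TE fit did not pair the genotypes by replicate number. Other alternatives were RLE size factors, no filter, DESeq2 1.42.0, protein-coding genes only, and leaving out libraries or replicates. No 2 replicates agreed within sampling noise (chi-square per degree of freedom at least 81.1).

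The members were given by the rule that uses no measured value, while the 5 pathway lists were chosen with earlier results of these data known. Named were all members, Osgep and, from each pathway list, the 2 genes with the smallest unadjusted p in total RNA and in RPF.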

Additional observations from a re-analysis of the deposited data

How the results depend on the processing

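The count of members called was 0 of 10 in total RNA, RPF and TE under every alternative run. These were RLE size factors, no filter on low counts, DESeq2, the block (replicate number, or cell sample in TE), protein-coding genes only, and each library or replicate left out. Over all genes, RPF calls were 229 without a filter and 1 with DESeq2, and total RNA calls were 8 with DESeq2 and 1 with the replicate block. The block changed no other call. The median TE change of the members was -0.046 with the cell sample as a block and 0.0075 with protein-coding genes only. Without a filter, the direction turned for Ascc3 (-0.030) and Nemf (-0.0031) in RPF and for Gtpbp2 (-0.024) and Edf1 (-0.029) in TE. With the cell sample as a block it turned for Edf1 in TE (-0.083). With protein-coding genes only it turned for Hbs1l (0.011), Ascc3 (0.0049) and Ltn1 (0.010) in TE. The cause was not tested.

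Leaving out 1 library or 1 replicate number moved the median RPF change between -0.24 and 0.0027, the median total RNA change between -0.10 and 0.015, and the median TE change between -0.13 and -0.0011. Members whose direction turned in RPF were Pelo (-0.32 to 0.062), Zfp598 (-0.44 to 0.049), Ascc3 (-0.29 to 0.35), Nemf (-0.11 to 0.23) and Edf1 (-0.41 to 0.58). In total RNA they were Pelo (-0.066 to 0.019), Gtpbp2 (-0.14 to 1.02), Ascc3 (-0.013 to 0.065), Nemf (-0.15 to 0.18), Edf1 (-0.10 to 0.43) and Map3k20 (-0.0028 to 0.24). In TE they were Pelo (-0.31 to 0.045), Hbs1l (-0.11 to 0.076), Gtpbp1 (-0.15 to 0.017), Gtpbp2 (-0.21 to 0.47), Zfp598 (-0.32 to 0.084), Ascc3 (-0.29 to 0.30), Ltn1 (-0.18 to 0.16), Nemf (-0.16 to 0.27) and Edf1 (-0.30 to 0.16). Gtpbp1 and Ltn1 kept a negative sign in RPF and total RNA under all of these, as did Hbs1l, and Gtpbp2 kept a positive sign in RPF. Where 1 library was left out, the remaining 2 of its group were compared with 3. Depth limits RPF most in shOSGEP replicate 1, with 4353 counts on the members.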
